A study of Mus musculus with 37 samples.

Results

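The genes described here were Zp1, Zp2 and Zp3, which encode the glycoproteins of the mouse zona pellucida, and Astl, which encodes ovastacin. They were chosen by gene symbol, as the structural genes of the egg coat and the protease that modifies it, and not by their values. All 4 were listed in each of 4 RNA-seq tables, which held 25053 genes (Hira line, GV oocytes), 19033 genes (Cabin1 line, GV oocytes), 24305 genes (Cabin1 line, 2-cell embryos) and 15855 genes (injected 2-cell embryos). The study asked what the Hira complex, the chaperone that deposits histone H3.3, does in mouse oocytes before and after the start of embryo development. It measured RNA in 31 libraries and open chromatin, by ATAC-seq, in 6 libraries.

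In the methods the wild-type mice and the floxed lines were C57BL/6, and no background is given there for the Zp3-Cre line. ZH oocytes carried floxed alleles of Hira and CabZ oocytes floxed alleles of Cabin1, another subunit of the complex. The Het controls carried Zp3-Cre with 1 floxed and 1 intact allele, and the KO oocytes carried Zp3-Cre with both alleles floxed, so every ZH and CabZ library came from mice with the Zp3-Cre transgene. In this transgene a promoter fragment of Zp3, itself one of the genes described here, drives Cre in growing oocytes. Germinal vesicle (GV) oocytes, which are fully grown and still arrested in meiosis, were taken from females primed with PMSG, a gonadotrophin. CabZ embryos were analysed at the 2-cell stage, and how those used for RNA-seq were obtained is not given in the sources used here. In the remaining table, wild-type GV oocytes were injected with RNA for Zscan4d, a gene of the 2-cell stage, or for GFP, then matured, activated by parthenogenesis and collected as 2-cell embryos. There were 4 libraries per group, apart from 3 labelled Zscan4 and 3 per genotype for ATAC-seq of CabZ GV oocytes. The methods describe pooled oocytes for each library whereas the sample records speak of single cells, and nothing links libraries to animals, so p-values measure the spread between libraries only.

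The zona pellucida is the extracellular coat of the egg. ZP1, ZP2 and ZP3 are made by the growing oocyte, passed through its secretory pathway and assembled into filaments through a shared domain, the ZP domain, with ZP2 and ZP3 as the repeating units and ZP1 as a cross-linker. ZP2 is also the site at which sperm bind, and ovastacin, an astacin metalloprotease stored in the cortical granules and released at fertilisation, cleaves ZP2 so that further sperm no longer bind. The mRNAs are products of oocyte growth, and maternal mRNAs of this kind are largely degraded by the 2-cell stage.

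In GRCm38 coordinates Zp1 spans chr19:10914287-10920633 on the minus strand, Zp2 chr7:120126772-120145292 on the minus strand, Zp3 chr5:135980099-135988625 on the plus strand and Astl chr2:127338639-127357652 on the plus strand. In the GENCODE M21 annotation none of them overlapped another gene. The exons of their coding transcripts together measured 1981 bp for Zp1, 2441 bp for Zp2, 1323 bp for Zp3 and 2560 bp for Astl. Promoter sequences were available from RefSeq (GRCm38.p6) for 2 of the 4 genes, with 1 start for Zp3 and 2 for Astl. The Zp3 promoter is shown because the most enriched ATAC-seq peak at any of these genes reached it, and both Astl promoters because peaks were called at either start. Each sequence gives the 250 bases before the RefSeq start, with E-boxes (CANNTG) and the letters TATAA, on either strand, in capitals.
Zp3, chr5:135979855-135980104, plus strand: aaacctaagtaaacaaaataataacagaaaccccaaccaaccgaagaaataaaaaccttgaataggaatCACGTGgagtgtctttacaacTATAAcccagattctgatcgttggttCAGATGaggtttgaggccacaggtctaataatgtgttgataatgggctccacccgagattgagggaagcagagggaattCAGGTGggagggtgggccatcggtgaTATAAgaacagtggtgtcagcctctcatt
Astl, first start, chr2:127338389-127338638, plus strand: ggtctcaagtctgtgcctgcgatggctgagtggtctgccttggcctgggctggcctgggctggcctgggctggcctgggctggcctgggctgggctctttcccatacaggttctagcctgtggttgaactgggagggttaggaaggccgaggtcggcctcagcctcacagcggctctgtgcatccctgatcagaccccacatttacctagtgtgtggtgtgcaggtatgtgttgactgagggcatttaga
Astl, second start, chr2:127341386-127341635, plus strand: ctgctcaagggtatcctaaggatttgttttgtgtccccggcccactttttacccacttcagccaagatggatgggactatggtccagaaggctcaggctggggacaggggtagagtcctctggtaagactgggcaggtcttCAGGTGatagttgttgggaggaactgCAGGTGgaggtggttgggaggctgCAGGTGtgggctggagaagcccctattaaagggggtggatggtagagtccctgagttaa
E-boxes are the sites of basic helix-loop-helix factors such as FIGLA, an oocyte factor that the zona genes need for their expression. The Zp3 window held 3 E-boxes, which began 181, 134 and 55 bases before the start, the last of them reading CAGGTG, and TATAA at 160 and 29 bases before the start. The window of the second Astl start held 3 E-boxes, at 109, 83 and 59 bases, all reading CAGGTG, and no TATAA, and that of the first Astl start held neither motif. No E-box shared bases with a TATAA match. Of the 32851 promoter windows of the same length in RefSeq's table, 66.2% held an E-box of any kind, 17.2% held CAGGTG on either strand and 22.8% held TATAA. The second Astl start lay 2997 bp into the gene, between exons of the longer transcript, and the last 6 bases of its window and of the Zp3 window were the first exon bases of a GENCODE transcript.

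The values rest on 5775049 to 21678543 reads on genes per library, recovered from the steps between the values, and reads are not molecules, so counts cover counting error only. Cabin1 had 0.0125 to 0.0482 FPKM in CabZ KO and 0.0891 to 0.159 FPKM in CabZ Het GV oocytes. In 2-cell embryos it had 0.0640 to 0.181 FPKM in CabZ KO and 0.229 to 0.455 FPKM in CabZ Het libraries. Hira had at most 0.0117 FPKM in every ZH library, too little to check the genotypes. Zscan4d had 70.3 to 84.3 FPKM in the libraries labelled Zscan4 and 69.4 to 149 FPKM in GFP embryos, so its level did not follow the label and directions in that table are given for libraries labelled Zscan4. Of 9 oocyte markers, 8 or 9 had a mean of at least 1 FPKM in every group. Of 14 granulosa and cumulus markers, 4 to 12 were listed per table, of which 0 to 2 reached that mean in any group (Serpine2, Inha and Tnfaip6), with a summed level of at most 8.94 FPKM. Of 4 blood markers 1 to 3 were listed, with a summed level of 46.1 to 125 FPKM in the CabZ 2-cell table, where Hba-a1 and Cd68 were above 1 FPKM, and of up to 5.26 FPKM in the other 3 tables.

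Zp3 was the most abundant of the 3 zona transcripts in GV oocytes. The length behind each FPKM is the distance from gene start to gene stop with introns, so levels of different genes were compared as RPKM over exons, the reads per kb of exon scaled to the reads on genes of the library. The 4 tables were normalized separately, so values are set side by side across tables and tested within a table only. On this scale Zp3 had a level of 4100 ± 316 (SD, n = 4) in ZH Het oocytes and 3741 ± 1149 (SD, n = 4) in CabZ Het oocytes. Zp2 had 1159 ± 185 (SD, n = 4) and 1141 ± 250 (SD, n = 4), and Zp1 706 ± 118 (SD, n = 4) and 501 ± 238 (SD, n = 4). Astl was lowest, at 95.6 ± 13.1 (SD, n = 4) and 84.4 ± 59.9 (SD, n = 4). The order Zp3, Zp2, Zp1 and Astl held in all 4 libraries of each of the ZH Het and the CabZ groups and in 3 of 4 of ZH KO oocytes, the exception being ZH KO replicate 3, in which Zp1 exceeded Zp2. By FPKM, Zp3 ranked 20th to 25th of all genes in the ZH Het libraries, Zp1 68th to 141st, Zp2 151st to 210th and Astl 1518th to 1849th. These ranks rest on the gene span with introns, and ranks over exons were not made.

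In ZH KO oocytes Zp2 was lower than in ZH Het oocytes, and Zp1, Zp3 and Astl did not pass the test but varied widely between the KO libraries. Zp2 had 92.0, 107, 123 and 133 FPKM in ZH Het replicates 1 to 4. In ZH KO replicates 1 to 4 it had 50.3, 65.8, 92.9 and 68.0 FPKM. All 4 KO libraries were below the Het mean, and KO replicate 3 alone overlapped the Het libraries, lying just above Het replicate 1. The two-sided exact permutation test of these values gave p = 0.0571. The ZH Het mean was 114 ± 17.9 FPKM and the ZH KO mean 69.2 ± 17.6 FPKM (SD, n = 4 each), a log2 fold change of -0.73 on the log2(FPKM + 1) scale (95% interval -1.16 to -0.29, adjusted p = 0.0112 from limma). Of the 5792 genes tested in this table, 26.3% passed (Benjamini-Hochberg adjusted p under 0.05) with lower values in ZH KO, so that 1 of 4 was close to the background, and 25.6% passed with higher values. These shares stand for 1521 lower and 1485 higher genes, and with libraries scaled to the median of well-expressed genes the counts were 1987 and 1195. The FPKM of this table were scaled to a total of which reads on genes made up 74.2 to 74.7% in Het and 66.0 to 68.2% in KO libraries, and scaled to the reads on genes the fold change was -0.58 (adjusted p = 0.0306 from limma). Because the libraries are bulk samples, a lower share of oocytes that hold these mRNAs and less mRNA per oocyte cannot be told apart.

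Zp3 had 489, 508, 423 and 476 FPKM in the 4 ZH Het libraries. In ZH KO replicates 1 to 4 it had 194, 400.2, 699 and 321 FPKM. Thus 3 KO libraries were below every Het library and 1 was above all of them, with a 3.61-fold range among the KO libraries and a 1.202-fold range among the Het libraries. The log2 fold change was -0.38 (95% interval -1.10 to 0.34, adjusted p = 0.339 from limma).

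Zp1 had 172, 199.9, 137 and 148 FPKM in ZH Het. In ZH KO replicates 1 to 4 it had 31.05, 148, 289 and 64.0 FPKM, a 9.31-fold range that reached below and above the Het libraries. Its log2 fold change was -0.75 (95% interval -2.01 to 0.51, adjusted p = 0.286 from limma). Astl had 10.6, 10.1, 7.66 and 10.0 FPKM in ZH Het and 1.16, 13.99, 18.4 and 3.06 FPKM in ZH KO replicates 1 to 4, a log2 fold change of -0.57 (95% interval -1.93 to 0.79, adjusted p = 0.452 from limma). The KO range of Astl was 15.8-fold, from 341 to 4599 reads.

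Zp1, Zp3 and Astl put the ZH KO libraries in the same order, with replicate 1 lowest, then 4, then 2, and replicate 3 highest. Zp2 kept replicate 1 lowest and replicate 3 highest within a narrower, 1.85-fold range. Without ZH KO replicate 3, Zp1 passed at a log2 fold change of -1.27 (adjusted p = 0.0376 from limma) and Zp3 at -0.69 (adjusted p = 0.0313 from limma), and without ZH KO replicate 1 the log2 fold change of Astl was 0.00528. The values of the 2 genotypes overlapped for all 4 genes, whereas 46.9% of the genes tested in this table did not overlap. The summed level of the oocyte markers was 2680 to 2894 FPKM in ZH Het and 2088 to 2246 FPKM in ZH KO libraries. The summed level of 9 markers of the 2-cell embryo was 73.4 to 109.5 FPKM in Het and 273 to 410.1 FPKM in KO libraries, and that of granulosa and cumulus markers was 6.33 to 8.94 and 3.97 to 7.32 FPKM. The part of these differences in the result was not tested.

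**Figure D1:**
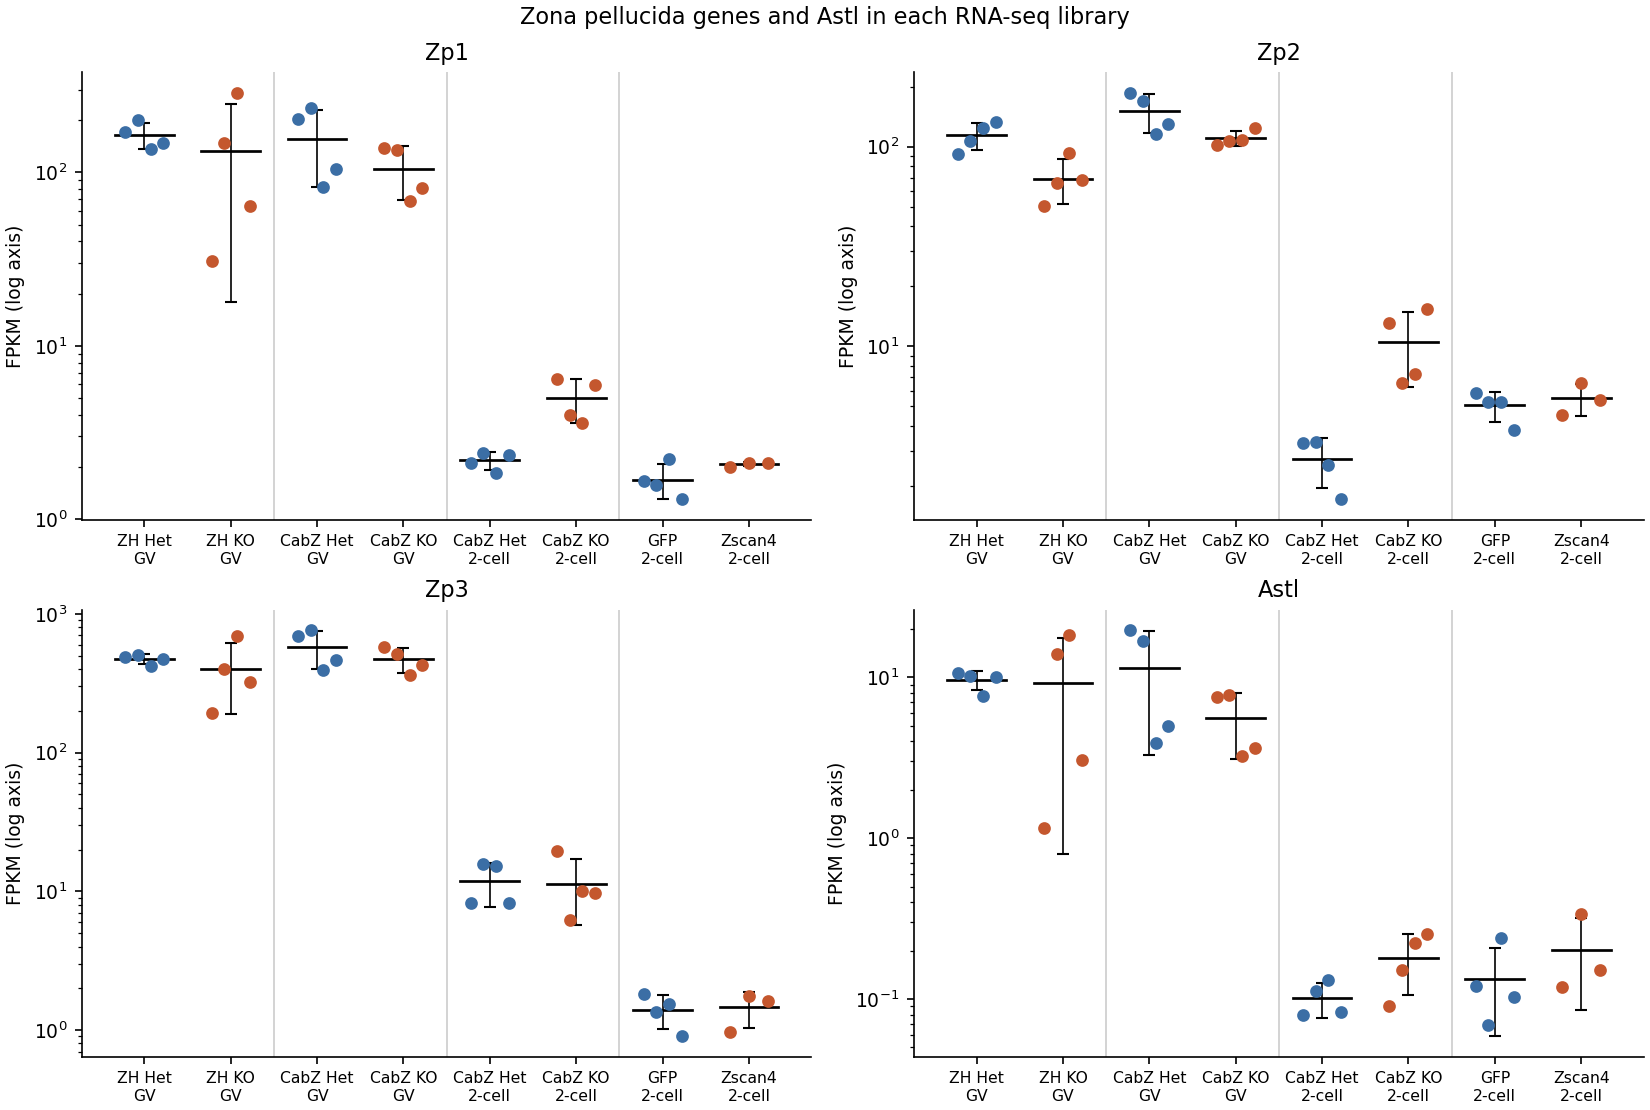
FPKM on a log axis for each gene in every library of the 8 RNA-seq groups, with blue points for control and orange points for KO or Zscan4 libraries, a line at the group mean and bars of 1 SD; within a group, libraries are ordered by replicate from left to right. The ZH KO libraries of Zp1, Zp3 and Astl are spread widely around their controls, and the 4 CabZ KO 2-cell libraries of Zp1 and Zp2 lie above all 4 controls.

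In CabZ KO GV oocytes all 4 genes had lower means than in CabZ Het oocytes and none passed the test. Zp2 had 187, 169, 115 and 131 FPKM in CabZ Het replicates 1 to 4. In CabZ KO it had 102, 107, 108 and 124 FPKM. All 4 KO libraries were below the Het mean, and 1 of them lay within the Het range. The log2 fold change was -0.42 (95% interval -0.77 to -0.07, adjusted p = 0.111 from limma), and without CabZ Het replicate 3 it was -0.54 and passed (adjusted p = 0.0464 from limma). Of the 6339 genes tested in this table, 5.73% passed with lower and 8.20% with higher values in CabZ KO, and 20.6% did not overlap between the genotypes.

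Zp3 had 692, 769, 393 and 469 FPKM in CabZ Het replicates 1 to 4 and 579.5, 516, 361 and 430.0 FPKM in CabZ KO. Zp1 had 204, 234, 82.3 and 104 FPKM in Het and 138, 134, 68.1 and 81.1 FPKM in KO. Astl had 19.7, 16.8, 3.93 and 5.00 FPKM in Het and 7.58, 7.75, 3.24 and 3.65 FPKM in KO. For these 3 genes the Het and KO libraries overlapped, and replicates 1 and 2 were higher than replicates 3 and 4 in both genotypes, by most in Astl. The labels name no batch for these libraries. The log2 fold changes were -0.27 for Zp3 (95% interval -0.78 to 0.24, adjusted p = 0.502 from limma), -0.50 for Zp1 (95% interval -1.29 to 0.30, adjusted p = 0.414 from limma) and -0.72 for Astl (95% interval -1.78 to 0.34, adjusted p = 0.371 from limma). Each of these intervals includes 0, which does not show that the genes were alike in both genotypes. The oocyte markers summed to 3708 to 4449 FPKM in CabZ Het and 3551 to 3917 FPKM in CabZ KO libraries, and the markers of the 2-cell embryo to 139 to 154 and 224 to 297 FPKM. The part of these differences in the values of the zona genes was not tested.

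**Figure D2:**
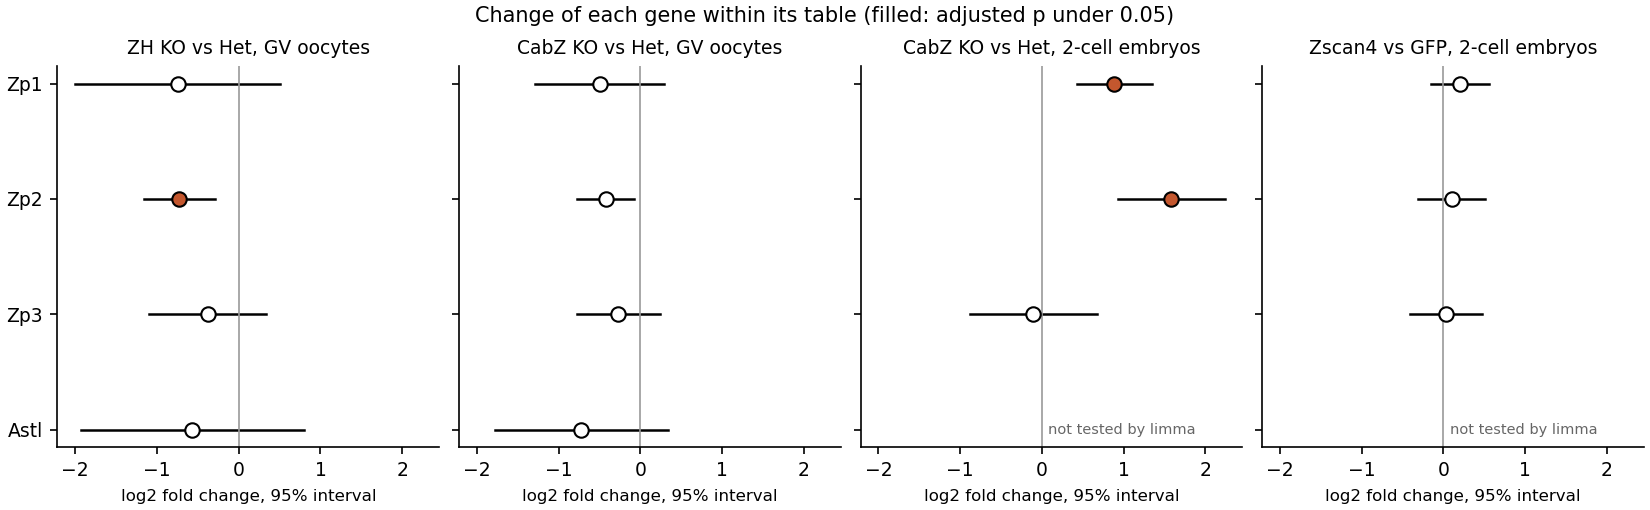
Log2 fold change of each gene on the log2(FPKM + 1) scale in the 4 comparisons, with the 95% interval from limma as a line and a filled point where the adjusted p was under 0.05. Zp2 was lower in ZH KO oocytes (-0.73), Zp1 and Zp2 were higher in CabZ KO 2-cell embryos (0.89 and 1.58), and every other point is open. Astl was below the limit of 1 FPKM for this test in both 2-cell tables and has no point there.

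At the 2-cell stage all 4 mRNAs were far below their GV levels, and in CabZ KO embryos Zp2 and Zp1 were higher than in CabZ Het embryos. Zp2 had 3.27, 3.34, 2.54 and 1.72 FPKM in CabZ Het replicates 1 to 4. In CabZ KO it had 13.04, 6.59, 7.25 and 15.4 FPKM. Every KO library was above every Het library. The Het mean was 2.72 ± 0.758 FPKM and the KO mean 10.6 ± 4.33 FPKM (SD, n = 4 each), a 3.89-fold ratio and a log2 fold change of 1.58 on the log2(FPKM + 1) scale (95% interval 0.93 to 2.24, adjusted p = 0.00173 from limma). Among the 7798 genes tested, 16.9% passed and were more than 2-fold higher on this scale, as Zp2 was. In all, 1963 genes passed with higher and 2413 with lower values in CabZ KO, and with libraries scaled to their median 2495 and 1967.

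Zp1 had 2.10, 2.42, 1.86 and 2.35 FPKM in CabZ Het 2-cell embryos. In CabZ KO embryos it had 6.45, 3.97, 3.61 and 5.93 FPKM, again with no overlap. Its log2 fold change was 0.89 (95% interval 0.43 to 1.34, adjusted p = 0.00514 from limma), from 93 to 122 reads per Het library and 144 to 237 reads per KO library. Thus 2 of the 3 genes tested passed with higher values, beside 25.2% of all genes tested, and none passed with lower values, beside 30.9%, while 51.0% of all genes tested did not overlap. The calls of Zp1 and Zp2 held without any single library.

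Zp3 had 8.26, 15.8, 15.3 and 8.21 FPKM in CabZ Het and 19.4, 6.18, 10.1 and 9.78 FPKM in CabZ KO 2-cell embryos, so the highest and the lowest library were both KO. Its log2 fold change was -0.10 (95% interval -0.88 to 0.67, adjusted p = 0.815 from limma), and it was 0.14 with libraries scaled to their median. Astl was below the mean of 1 FPKM required for the test. It had 12, 17, 20 and 13 reads in the Het libraries (0.0794, 0.112, 0.132 and 0.0830 FPKM) and 10, 18, 27 and 28 reads in the KO libraries (0.0900, 0.151, 0.224 and 0.253 FPKM). The means of Astl were 0.102 ± 0.0250 and 0.180 ± 0.0736 FPKM (SD, n = 4 each), with overlapping libraries, and the difference did not pass (exact permutation test, two-sided, p = 0.114).

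The CabZ KO 2-cell libraries held 5775049 to 6287110 reads on genes and the Het libraries 7893360 to 8183372. Scaling the libraries to the median of well-expressed genes moved the median log2 fold change of all genes from -0.11 to 0.13, and with it those of Zp2 to 1.82 and of Zp1 to 1.13, so both lay above the median of all genes on either scale. The oocyte markers summed to 1723 to 2075 FPKM in Het and 1368 to 3035 FPKM in KO libraries, the markers of the 2-cell embryo to 273 to 626 and 497 to 989.9 FPKM, and the blood markers to 46.1 to 99.7 and 47.7 to 125 FPKM. The part of read number and markers in the result was not tested.

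In 2-cell embryos from injected oocytes none of the 4 genes passed the test. Zp2 had 5.86, 5.28, 5.29 and 3.80 FPKM in GFP libraries A to D and 4.56, 6.55 and 5.37 FPKM in libraries A to C labelled Zscan4. Zp1 had 1.66, 1.56, 2.22 and 1.304 FPKM in GFP and 2.01, 2.09 and 2.11 FPKM in libraries labelled Zscan4. Zp3 had 1.83, 1.34, 1.54 and 0.899 FPKM in GFP and 0.968, 1.77 and 1.63 FPKM in libraries labelled Zscan4. The groups overlapped for every gene. The log2 fold changes were 0.10 for Zp2 (95% interval -0.31 to 0.51, adjusted p = 0.783 from limma), 0.20 for Zp1 (95% interval -0.15 to 0.56, adjusted p = 0.476 from limma) and 0.03 for Zp3 (95% interval -0.41 to 0.47, adjusted p = 0.947 from limma). Astl had 75, 20, 71 and 29 reads in GFP libraries and 45, 131 and 42 reads in libraries labelled Zscan4, with means of 0.132 ± 0.0739 FPKM (SD, n = 4) and 0.202 ± 0.117 FPKM (SD, n = 3), and the difference did not pass (exact permutation test, two-sided, p = 0.4). Of the 4293 genes tested in this table, 1.70% passed with lower and 0.0932% with higher values in libraries labelled Zscan4, and 18.2% did not overlap. The markers of the 2-cell embryo summed to 459 to 695 FPKM in GFP and 272 to 502 FPKM in libraries labelled Zscan4, and the oocyte markers to 3082 to 3324 and 2659 to 3207 FPKM.

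The balance between the zona transcripts was read from their ratio within each library, which does not depend on the scaling of the tables. Per kb of exon, the ratio of Zp2 to Zp3 was 0.281 in ZH Het, 0.219 in ZH KO, 0.311 in CabZ Het and 0.279 in CabZ KO GV oocytes (geometric means). In CabZ Het 2-cell embryos it was 0.273, within the range of the GV group means. Replicates 1 to 4 had 0.467, 0.249, 0.196 and 0.246. Of these, replicate 1 lay above every GV library, the highest of which had 0.351 (CabZ KO replicate 3). In CabZ KO 2-cell embryos the ratio was 1.12, with 0.792, 1.25, 0.847 and 1.86 in replicates 1 to 4. All KO libraries were above all Het libraries, a log2 difference of 2.03 or 4.09-fold. The two-sided exact permutation test gave p = 0.0286, the smallest that 4 libraries against 4 allow, and a Benjamini-Hochberg adjusted p of 0.171 over the 12 ratios compared, so the difference did not pass the correction. With the offset of the table left in the values the log2 difference was 1.02 (exact permutation p = 0.0571).

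The ratio of Zp1 to Zp3 behaved likewise. It was 0.126, 0.0762, 0.0604 and 0.142 in CabZ Het and 0.165, 0.320, 0.178 and 0.302 in CabZ KO 2-cell embryos, with no overlap and a log2 difference of 1.27 (same exact permutation test, p = 0.0286, adjusted p = 0.171). The ratio of Astl to Zp3 in these embryos was 0.0101 in Het and 0.0184 in KO (same exact permutation test, p = 0.143, adjusted p = 0.49). In GV oocytes of both lines, and in the injected embryos, the groups overlapped for all 3 ratios, with unadjusted p between 0.229 and 0.686 by the same exact test.

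As shares of the 3 zona transcripts, Zp3 took 68.7 ± 2.26% (SD, n = 4) in ZH Het, 73.1 ± 0.874% (SD, n = 4) in ZH KO, 69.4 ± 1.13% (SD, n = 4) in CabZ Het and 71.8 ± 2.87% (SD, n = 4) in CabZ KO GV oocytes. Its share was 72.5 ± 7.17% (SD, n = 4) in CabZ Het and 42.7 ± 9.16% (SD, n = 4) in CabZ KO 2-cell embryos. In the injected 2-cell embryos Zp2 was the main zona transcript, with 72.8 ± 2.07% (SD, n = 4) in GFP and 72.2 ± 1.73% (SD, n = 3) in libraries labelled Zscan4, and Zp3 took 16.9 ± 1.83% (SD, n = 4) and 16.0 ± 2.54% (SD, n = 3). Zp2 was above Zp3 in all 7 injected libraries, in 2 of 4 CabZ KO and in 0 of 4 CabZ Het 2-cell libraries, and this was not tested across the tables because they come from separate experiments. Zp1 took between 4.81 and 15.1% of the zona transcripts in all 31 libraries.

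**Figure D3:**
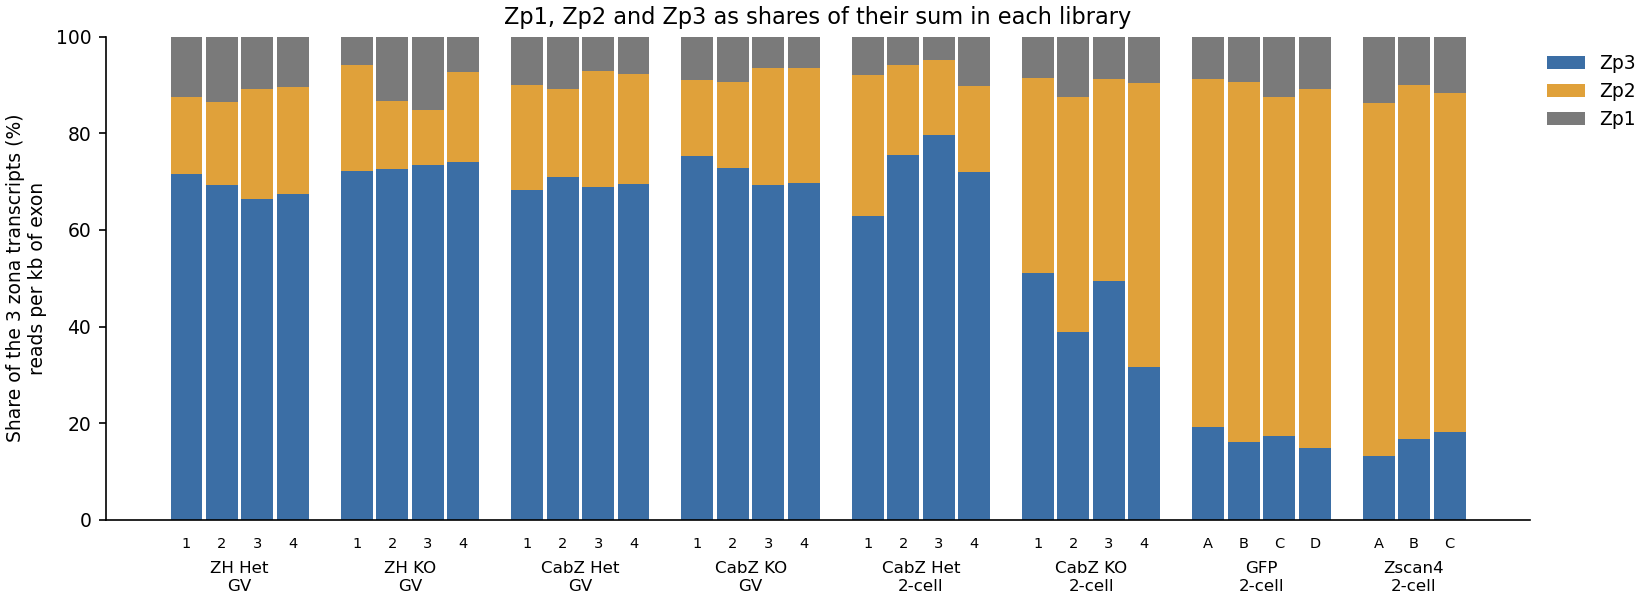
Shares of Zp1, Zp2 and Zp3 in the sum of their reads per kb of exon, as 1 bar per library from 0 to 100%, grouped by table and genotype or injection with the replicate under each bar. Zp3 takes 66.4 to 75.4% in the GV libraries and 62.8 to 79.6% in CabZ Het 2-cell libraries, 31.7 to 51.1% in CabZ KO 2-cell libraries and 13.2 to 19.2% in the injected embryos.

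Genes around the zona genes were described as lists, by how many members passed and by their median, beside the median of all genes tested in the same table. Of 10 regulators of zona gene transcription and oocyte growth, 6 were tested in ZH oocytes, where 2 passed with higher and 3 with lower values in KO, beside 25.6% and 26.3% of all genes, and the median log2 fold change was -0.78, against -0.04 for all genes. Bmp15, an oocyte growth factor, fell from 391 ± 83.6 to 89.6 ± 32.3 FPKM (SD, n = 4 each; log2 fold change -2.16, adjusted p = 0.000152 from limma), and Nobox, an oocyte homeobox factor, from 114 ± 18.8 to 49.9 ± 37.9 FPKM (SD, n = 4 each; log2 fold change -1.53, adjusted p = 0.0306 from limma). Figla, whose product binds the E-boxes of the zona promoters, was one of the 2 that rose, by 1.01 on the log2 scale (adjusted p = 0.000557 from limma), and was picked after its value was seen. In CabZ GV oocytes 0 of 6 tested passed. In CabZ KO 2-cell embryos the 4 of these 10 that were tested all passed with higher values, beside 25.2% of all genes. Their median log2 fold change was 1.54, against -0.11 for all genes. Gdf9, another oocyte growth factor, rose by 1.89 (adjusted p = 0.00161 from limma) and Tbpl2, the oocyte form of the TATA-binding protein, by 1.62 (adjusted p = 0.000217 from limma). Tbpl2 had 0.209 FPKM in CabZ Het and 2.72 FPKM in CabZ KO embryos. In ZH oocytes, where it was the other gene that rose, it had 0.754 FPKM in Het and 2.24 FPKM in KO. In both comparisons it reached the limit of 1 FPKM only through the KO libraries, so its calls give the list no direction. In the injected embryos 0 of 3 tested passed, with a median of 0.72 against 0.03.

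Of 10 gene symbols listed for proteins of the egg surface or secreted by the oocyte, Izumo1r and Folr4 name the same gene, and 6 were tested in each table. In ZH KO oocytes 4 of them fell, beside 26.3% of all genes, with a median log2 fold change of -0.71 against -0.04 for all genes. The largest decreases were those of Oosp1 (-1.96, adjusted p = 3.02e-05 from limma) and Oosp3 (-1.91, adjusted p = 0.000108 from limma), which encode secreted oocyte proteins. In CabZ KO oocytes, where 5.73% of all genes passed with lower values, 1 passed (list median -0.33 against -0.02), Izumo1r, the egg receptor for sperm IZUMO1, which fell from 26.8 ± 2.26 to 17.2 ± 0.590 FPKM (SD, n = 4 each; log2 fold change -0.61, adjusted p = 0.00296 from limma). In CabZ KO 2-cell embryos 4 rose and 1 fell, beside 25.2% and 30.9% of all genes, with a median of 0.97 against -0.11, and the largest changes were those of Oosp2 (1.64, adjusted p = 0.000378 from limma) and Izumo1r (1.08, adjusted p = 0.00135 from limma). At the 2-cell stage Izumo1r had 0.460 ± 0.137 FPKM in CabZ Het and 2.12 ± 0.647 FPKM in CabZ KO embryos (SD, n = 4 each). It reached the limit of 1 FPKM there only through the KO libraries. Its call as 1 of the 4 that rose is therefore not set against its lower level at the GV stage. In the injected embryos 0 of 6 passed, with a median of -0.02 against 0.03.

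Of 15 genes of cortical granules and their exocytosis, 6 were tested in ZH oocytes and 4 fell in the KO, beside 26.3% of all genes (median -0.56 against -0.04). The largest decreases were those of Padi6 (-0.998, adjusted p = 0.0331 from limma), a maternal protein of the oocyte, and Rab3a (-0.94, adjusted p = 0.00196 from limma), a GTPase of regulated secretion. Padi6 had 102 ± 4.18 FPKM in Het and 57.65 ± 34.9 FPKM in KO (SD, n = 4 each) with overlapping libraries, whereas those of Rab3a did not overlap. In CabZ KO oocytes 1 of 6 fell, beside 5.73% of all genes (median -0.03 against -0.02), Rab11a (-0.46, adjusted p = 0.0168 from limma). In CabZ KO 2-cell embryos 3 of 6 rose and 1 fell, beside 25.2% and 30.9% of all genes (median 0.51 against -0.11), with the vesicle SNARE Vamp3 at 1.98 (adjusted p = 0.000217 from limma) and Snap23, a SNARE of the plasma membrane, at -1.36 (adjusted p = 0.000315 from limma). In the injected embryos 0 of 5 passed (median 0.15 against 0.03). Of 15 genes for folding and processing in the secretory pathway, 9 were tested in ZH oocytes, where 1 rose and 5 fell, beside 25.6% and 26.3% of all genes (median -0.45 against -0.04). The chaperone Hsp90b1 rose (0.77, adjusted p = 0.00533 from limma) and the disulphide isomerase Pdia4 fell (-1.15, adjusted p = 0.000385 from limma). In CabZ GV oocytes 0 of 9 passed (median -0.07 against -0.02). In CabZ KO 2-cell embryos 3 rose and 2 fell, close to the 25.2% and 30.9% of all genes (median -0.18 against -0.11), with Sec61b of the protein translocation channel at 1.49 (adjusted p = 0.00247 from limma) and Pdia3 at -1.08 (adjusted p = 0.00201 from limma). In the injected embryos 0 of 6 passed (median 0.00 against 0.03). Of 10 ZP-domain genes of other tissues 5 to 9 were listed per table, and of 5 further astacin proteases 2 to 5. None of those listed reached the mean of 1 FPKM, which is per kb of gene span with introns.

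The genes most like each member were sought among 3297 genes tested in all 4 tables, by Pearson's r of log2(FPKM + 1) over the 31 libraries, each gene centred on the control mean of its table. These correlations describe libraries that share genotype, table and depth. The 3 genes most like Zp2 were Miox (r = 0.936), Uchl1 (0.920) and Mos (0.920), the last a kinase that holds the egg in meiotic arrest. For Zp1 they were Tmbim1 (0.904), Gm4961 (0.9) and Mtfr1l (0.888), and for Zp3 Atp1b3 (0.783), Rfk (0.715) and Cdipt (0.712). Astl was most like Tmbim1 (0.893), Zp1 (0.870) and Gm4961 (0.803). Within the family, r was 0.735 for Zp1 and Zp2, 0.697 for Zp1 and Zp3 and 0.361 for Zp2 and Zp3, the genes whose products form the filament together.

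In the ATAC-seq of CabZ GV oocytes, Zp3 had one of the most enriched peaks of the genome in every library of both genotypes. Fold enrichment over the genome background was 256, 231 and 438 in Het libraries A to C and 305, 216 and 282 in KO libraries A to C, so the genotypes overlapped. This peak was the 2nd or 3rd most enriched of 19160 to 111327 peaks per library, and 1 of 5 above 100-fold in each. In Het library A it covered chr5:135973651-135980097, that is 6447 bp which ended 2 bp before the first base of Zp3. It began at this base or within 4 bp of it in 5 of 6 libraries, and further upstream, at chr5:135973031, in KO library B. It ended at the same base in KO library C and ran on into the gene in the other 4 libraries, to 2737 bp past the start in KO library A. The summits lay between -2907 and -3002 bp from the start, outside the 250 bases printed above. The Zp3-Cre transgene, which mice of both genotypes carry, holds a Zp3 promoter fragment, and the peak lists cannot tell reads of the transgene from reads of the gene itself, so the 2 sources cannot be told apart.

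At the other 3 genes the peaks were weak, with fold enrichments from 3.54 to 6.09 within 500 bp of the gene start. Such a peak was called at Zp1 in Het libraries B and C and KO libraries A and B. At Zp2 it was called in Het libraries A and C and KO libraries A and C. At the first start of Astl it was called in the 3 Het libraries, with fold enrichments of 3.54, 3.64 and 5.86, and in 0 of 3 KO libraries, and within 500 bp of the second start it was called in the 3 Het libraries (4.72, 4.36 and 7.04) and in KO library C (5.90). The lists are of unequal length, with 43399, 67074 and 111327 peaks in the Het and 46070, 19160 and 29600 peaks in the KO libraries, and the share of the 21938 protein-coding genes with a peak within 500 bp of their start was 8.59, 17.5 and 32.3% in Het and 12.4, 3.75 and 4.91% in KO libraries. The part of list length in the Astl difference was not tested. With only peaks of a -log10 q of at least 5, Zp3 kept its peak in 6 of 6 libraries, Zp2 in 2, and Zp1 and Astl in 1 each.

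**Figure D4:**
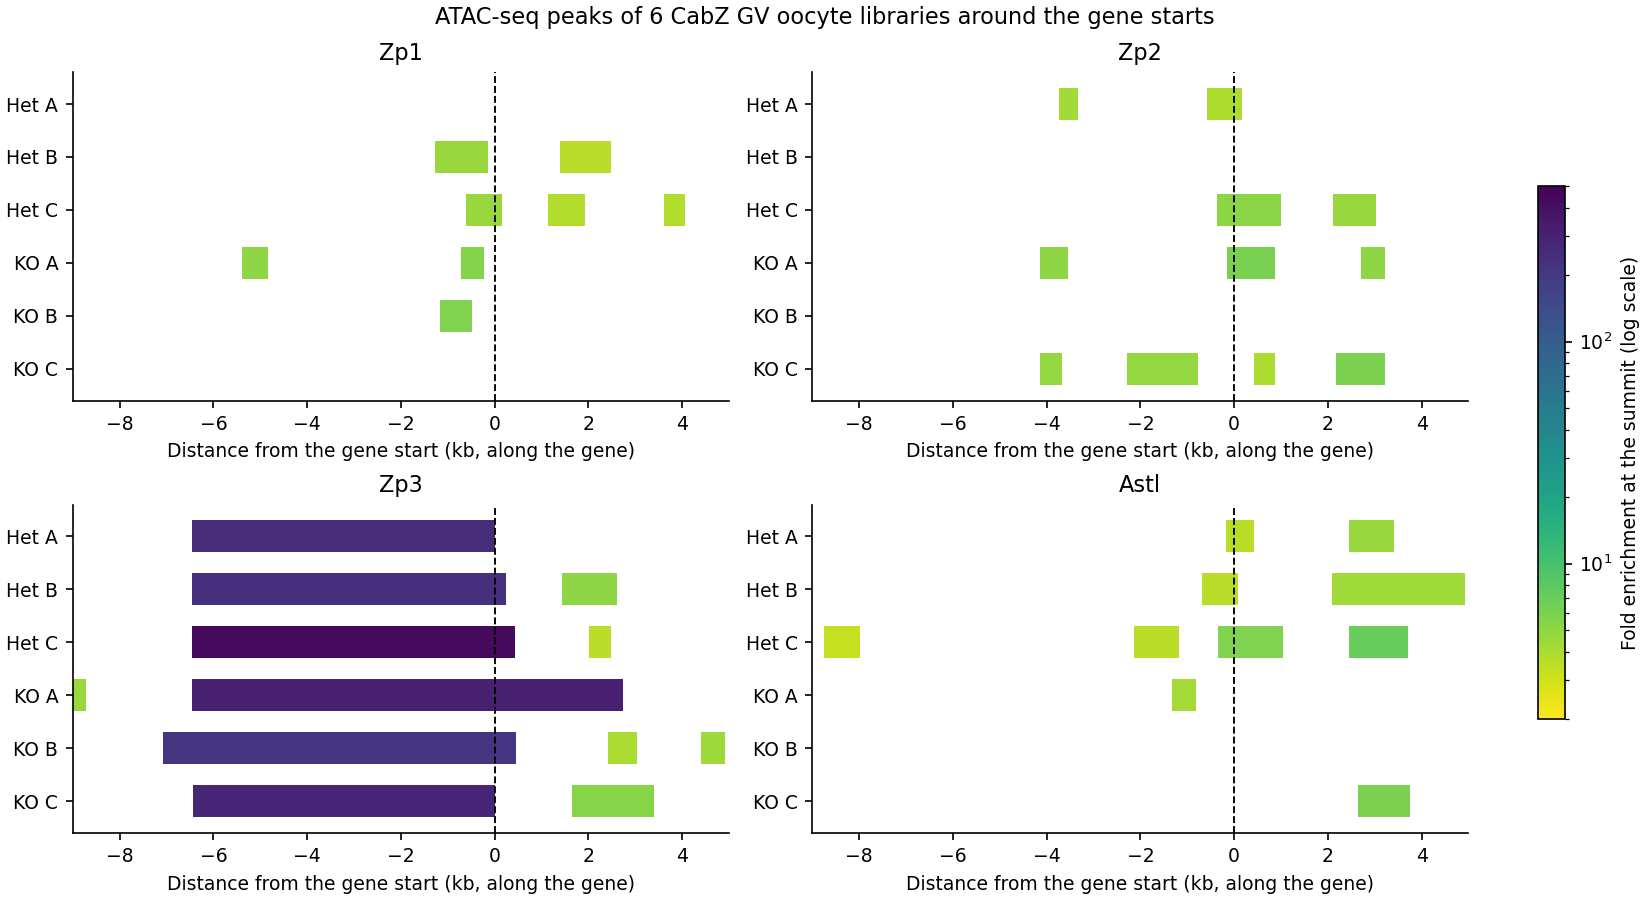
ATAC-seq peaks from 9 kb before to 5 kb after the start of each gene (dashed line), 1 row per library, 3 of CabZ Het above 3 of CabZ KO, coloured by fold enrichment at the summit on a log scale. The peak before Zp3 is present in all 6 libraries at 216- to 438-fold, and no peak in the other 3 panels exceeds 7.04-fold.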

How the data were processed

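RNA-seq of 31 libraries (Smart-seq2) and ATAC-seq of 6 libraries of mouse oocytes and 2-cell embryos were used. Per the labels and the methods, the authors aligned RNA reads with STAR 2.5.3a, quantified and tested them in Partek Flow, aligned ATAC-seq reads with Bowtie2 2.3 and called peaks for each library with MACS2. The deposited FPKM of the Hira and injection tables hold an added offset of 0.01 and 0.001, per kb of gene span. The deposited values of both Cabin1 tables, treated as a score, had been divided by the span a second time by the authors, with 0.01 added and each library scaled to 1 sum. FPKM were restored by subtracting the smallest value, multiplying by the span and rescaling, and whole reads were recovered from the steps between low values (85.9 to 90.3% whole within 0.1). The deposited peak lists give fold enrichment, -log10 p and q values and a score for each peak. All columns of values had a sample.

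Genes whose mean over a table reached 1 FPKM entered the fit by limma 3.58.1 (R 4.3.3) on log2(FPKM + 1) within each table, with Benjamini-Hochberg adjustment over all of them. Fold changes on this scale understate those of low genes. The fit was tested on simulated data. Ratios, and Astl below 1 FPKM, were compared with exact permutation tests (scipy 1.17.1). Intervals are 95%. Gene symbols, sample labels and groups were taken from the tables and labels. Named genes were all 4 members, the 2 members of each list with the largest absolute change among those that passed in a table, and the 3 genes most like each member. The genes and lists were chosen with earlier results of these data known. Alternatives were another pseudocount (0.1), no filter, median scaling, other totals, a variance trend, the replicate number as a block, values as deposited, a stricter peak threshold, a wider window and leaving out each library. Annotation was GENCODE M21 (GRCm38).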

Additional observations from a re-analysis of the deposited data

Results flagged for a closer look

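Zp1 and Zp2 moved in opposite directions at the 2 stages of the CabZ line. For Zp1 the ratio of the CabZ KO to the CabZ Het mean was 0.674 in GV oocytes and 2.29 in 2-cell embryos. For Zp2 it was 0.733 in GV oocytes and 3.89 in 2-cell embryos. In GV oocytes all 4 KO libraries were below the Het mean for both genes, and in 2-cell embryos all 4 were above it. The difference between the stages was not tested, since the tables were normalized separately, and the GV values alone did not pass. Over the 4 genes, no library stood apart in the 28 sets of 4 values examined, each holding 1 gene in 1 group.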

How the results depend on the processing

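The limma calls of Zp2 in ZH KO oocytes and of Zp1 and Zp2 in CabZ KO 2-cell embryos held under every alternative setting. By the two-sided exact permutation test of FPKM, Zp2 in ZH oocytes did not pass (p = 0.0571). By the same exact permutation test, Zp1 and Zp2 in CabZ 2-cell embryos each had p = 0.0286. Without single libraries, 197 of 217 values kept direction and side of the threshold, and under other settings 98 of 109. The cause was not tested where a value changed.

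Log2 fold changes without single libraries ran as follows. In ZH oocytes Zp1 had -1.27 to -0.21 (adjusted p = 0.0376 from limma without KO replicate 3), Zp3 -0.69 to -0.0791 (0.0313 without KO replicate 3) and Astl -1.05 to 0.00528. In CabZ oocytes Zp2 had -0.54 to -0.31 (0.0464 without Het replicate 3), Zp1 -0.76 to -0.26, Zp3 -0.44 to -0.12 and Astl -1.07 to -0.38. In CabZ 2-cell embryos Zp3 had -0.38 to 0.12, and the log2 difference of Astl was 0.067 to 0.13 (exact permutation p = 0.0286 without KO replicate 1). In libraries labelled Zscan4, Zp2 had -0.0138 to 0.21 and Zp3 -0.0791 to 0.18. Ratios gave -0.81 to 0.0353 for Astl to Zp3 in ZH oocytes and -0.0724 to 0.18 for Zp2 to Zp3 in injected embryos. In CabZ 2-cell embryos they gave 1.05 to 1.47 for Zp1 to Zp3 (exact permutation p = 0.0571 without Het replicate 3, KO replicate 2 or KO replicate 4), 1.79 to 2.29 for Zp2 to Zp3 (0.0571 without KO replicate 4) and 0.63 to 1.46 for Astl to Zp3 (0.0286 without KO replicate 1).

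In CabZ 2-cell embryos Zp3 was 0.14 with median scaling and 0.035 with values as deposited. With the offset left in, the log2 differences of the ratios to Zp3 were 0.83 for Zp1 (exact permutation p = 0.0857), 1.02 for Zp2 (p = 0.0571, exact) and -0.39 for Astl. Genes that passed numbered 7005 against 3006 without the filter in ZH and 1399 against 883 in CabZ oocytes, where leaving out single libraries gave 588 to 843, and in injected embryos 77, or 6 without the filter, 47 with a pseudocount of 0.1 and 18 to 112 without single libraries.

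Deviations of libraries of equal number correlated at r = -0.407 to 0.395 over the tables. In no table were all such pairs above 0.1, which does not show that the libraries were unpaired. In the ZH line, Het replicates 1 and 2 correlated positively with KO replicates 2 and 3 (r = 0.14 to 0.454). Het replicates 3 and 4 did so with KO replicates 1 and 4 (r = 0.196 to 0.475). Every other ZH pair was negative (r = -0.436 to -0.117). Zp1, Zp3 and Astl, but not Zp2, were lower in Het replicates 3 and 4 and KO replicates 1 and 4 than in the others of their genotype. A block by replicate number does not follow these sets, and a shared batch was not tested. The main fit used no block because the study states no pairing. With the replicate block, Zp2 and Zp3 in libraries labelled Zscan4 were -0.00674 and -0.0791, 2 genes passed there, and no call of the 4 genes changed. In CabZ GV oocytes the block brought Zp1 and Astl close to the threshold, with intervals that exclude 0. The interval became -0.80 to -0.20 for Zp1 (adjusted p = 0.0546 from limma) and -1.18 to -0.26 for Astl (adjusted p = 0.0656 from limma). Without the filter, Astl in 2-cell embryos had log2 fold changes of 0.10 in CabZ KO (adjusted p = 0.198 from limma) and 0.08 in libraries labelled Zscan4 (adjusted p = 0.724 from limma). The depth of the ATAC-seq libraries is not given in the sources used here, and whether peaks missing from a short list are absent was not tested.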
